A study of Mus musculus with 24 samples.

Results

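Liver tumours of mice given the mTORC1 inhibitor RMC-6272 were compared, 72 h after a second dose, with tumours of mice given vehicle. The comparison used 6 libraries of the 24 in the study, 3 labelled RMC-6272_72h and 3 labelled Veh_24h. Of 54403 genes in the table, 12470 had an FPKM of 1 or more in at least 2 of these 6 libraries and were tested. FPKM is the number of fragments per kilobase of gene, scaled to the mapped reads of the library, so levels can be compared between genes.

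All mice carried Lap-tTA/Tet-O-MYC on the FVB/N strain, in which a human MYC transgene is driven in hepatocytes by a liver promoter and is held off by doxycycline. Doxycycline had been withdrawn 4 weeks after birth, so the transgene was on in both groups. RMC-6272 was given at 10 mg/kg into the peritoneum, once weekly, with the second dose 7 days after the first. The vehicle, a mixture of Transcutol, Solutol HS 15 and water, was given by the same route and schedule. Vehicle tumours were collected at 24 h after the second dose alone, so the effect of the compound and that of the later collection time cannot be told apart. Each library came from flash-frozen hepatocellular carcinoma tissue, and the labels do not say whether the replicates are separate mice, so p-values measure the spread between these samples. The description codes of the RMC-6272 libraries share no beginning with those of the vehicle libraries, and any difference between such code groups cannot be told apart from treatment either.

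mTORC1 is a kinase complex that senses amino acids and growth factors on the lysosome. When active it phosphorylates 4EBP1, which frees the cap-binding protein eIF4E for translation, and S6 kinase, and it promotes ribosome, nucleotide and lipid synthesis while holding back autophagy. MYC drives many of the same growth programmes at the level of transcription, and in the liver it is known for tumours that lose features of mature hepatocytes. The series title names RMC-6272's class as bi-steric and mTORC1-selective. RNA levels do not measure the phosphorylation of its substrates.

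The tumours expressed hepatocyte genes in every library. None of 10 hepatocyte markers was at 0, and their summed level was 23100, 20470 and 7280 FPKM at 72 h, against 6191, 4628 and 3799 FPKM in vehicle. Summed marker levels, here and below, were not scaled to the FPKM total of the library. That total was 5.159e+05, 5.215e+05 and 5.953e+05 at 72 h, against 3.247e+05, 4.14e+05 and 4.035e+05 in vehicle. The third library at 72 h stood apart. Its depth, estimated from what 1 read is worth among low FPKM values, was 17.6 M reads, against 31.0 to 38.0 M reads in the other 5 libraries, and its correlation across genes with the other libraries at 72 h was 0.838 and 0.856, against 0.928 between those and 0.954 to 0.971 among vehicle libraries. Globin genes made up 6.24% of its FPKM total, against 0.0276 and 0.294% in the other libraries at 72 h and 0.0148 to 0.107% in vehicle. Mitochondrial genes made up 10.6% of its FPKM total, against 4.29 and 4.54% in the other libraries at 72 h and 4.21 to 8.07% in vehicle, and their part in the results was not tested. It also held more RNA of other blood and vessel cell markers. The 21 neutrophil markers summed to 522, 376 and 3719 FPKM at 72 h, against 126, 87.9 and 107 FPKM in vehicle. Platelet markers, 15 in all, summed to 13.4, 5.54 and 307 FPKM at 72 h, against 4.85, 4.61 and 3.16 FPKM in vehicle. Of the neutrophil markers, 0 to 2 were at 0 in a library at 72 h and 4 to 6 in a vehicle library. Neutrophil markers were higher at 72 h than in vehicle in the first and second libraries as well. In bulk tissue fewer cells of a type and less RNA per cell cannot be told apart. Results are therefore given with and without the third library.

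**Figure D1:**
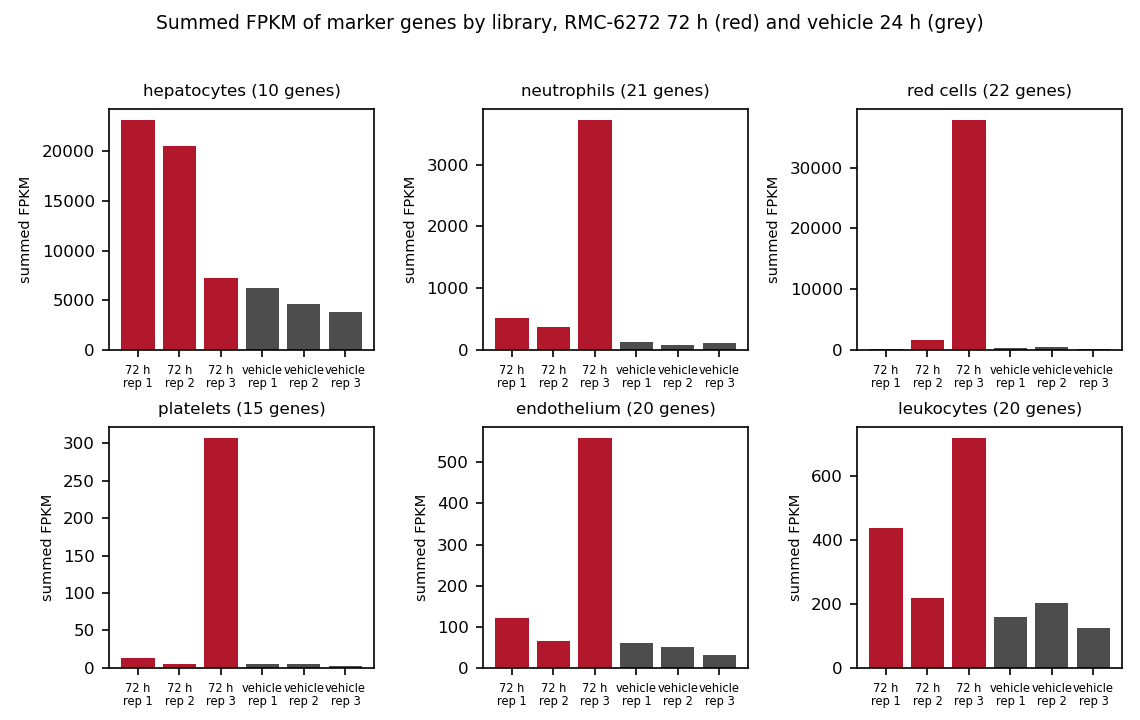
Summed FPKM of marker genes (vertical axes, linear, each panel with its own scale) in the 3 RMC-6272 72 h libraries (red) and the 3 vehicle 24 h libraries (grey). Neutrophil, red cell, platelet and endothelial sums are highest in 72 h replicate 3, whose hepatocyte sum of 7280 FPKM is the lowest of the 72 h libraries.

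Genes that were lower at 72 h than in vehicle included many of ribosome assembly, nucleotide synthesis, DNA replication and mitosis, and genes that were higher included acute phase genes and single genes of mature liver function and blood cells. With limma on log2(FPKM + 1) and a Benjamini-Hochberg adjusted p under 0.05, 1814 genes passed, which is 14.5% of those tested. Of these, 824 (6.61%) were higher and 990 (7.94%) lower at 72 h. The counts of list members below are to be read against those shares. At least a 2-fold difference was reached by 538 of the higher and 292 of the lower genes. In 4215 genes, 33.8% of those tested, every library at 72 h lay on the same side of all vehicle libraries. The median log2 fold change of all genes was -0.02, and 0.02 with median-ratio scaling. Without the third library 560 genes passed (4.49%), 269 higher (2.16%) and 291 lower (2.33%), of which 183 and 269 had also passed with it. None of the 1814 genes changed sign without that library.

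This count rested on an estimate of spread shared with the other 18 libraries of the study. Fitted on the 6 libraries alone no gene passed in limma, while 3048 had an unadjusted p under 0.05. The count was 213 without vehicle replicate 1, 863 without vehicle replicate 2, 502 without vehicle replicate 3 and 3226 without 72 h replicate 2. Quantile normalization gave 2188 genes, of which 33.4% were higher, against 45.4% in the fit reported, while without 72 h replicate 1 the balance turned to 663 higher and 585 lower genes. With the description code as a random block, in which libraries whose codes begin alike are allowed to vary together, 181 genes passed, 57 higher and 124 lower. Of the lists with lower members, that block left 4 genes of ribosome biogenesis, 4 of nucleotide synthesis, 3 of DNA replication, 3 of mitosis, 2 of DNA repair, 2 of tRNA charging, 2 ATF4 targets, 1 translation factor and no gene of the G1/S list. A stricter set was therefore kept in view, the genes that passed with all libraries and in each of the 6 fits that left out 1 of the 6 compared. It held 64 higher genes (0.513%) and 106 lower genes (0.85%), and is called the leave-one-out set below. After a gene's adjusted p stands either its highest value over those 6 fits, as "up to", or its value without 72 h replicate 3. A called gene outside the set lost its call in at least 1 of the 6 fits.

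Of 43 tested components and regulators of the mTORC1 pathway itself, 3 were lower and none higher, against 7.94% and 6.61% of all genes. None passed without the third library. Every library at 72 h lay below vehicle in 11 of the 43 and above it in 3, against 20.4% and 13.4% of all genes. The called genes were Sesn2 and Sesn3, sestrins that hold mTORC1 back when amino acids are short, and Mios. Mios is a subunit of the GATOR2 complex that passes on the amino acid signal. Mios had 3.03, 3.45 and 3.08 FPKM at 72 h, against 5.61, 5.88 and 5.69 FPKM in vehicle. Its log2 fold change was -0.68 ± 0.18, with a limma adjusted p of 0.0256, up to 0.0704 without vehicle replicate 1. Here and for the log2 fold changes below, the value after ± is the standard error of the limma fit. It rests on the spread shared by all 24 libraries and not on the 3 libraries of each group alone. Mtor, the kinase, had 6.02, 4.08 and 3.68 FPKM at 72 h, against 5.72, 5.05 and 5.03 FPKM in vehicle, and these ranges overlapped (limma adjusted p = 0.775).

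Among 25 substrates and partners in cap-dependent translation, 2 were lower and none higher. Larp1, which binds messages that encode ribosomal proteins, had 40.9, 49.8 and 21.6 FPKM at 72 h, against 72.9, 77.6 and 63.5 FPKM in vehicle, a log2 fold change of -0.99 ± 0.24 (limma adjusted p = 0.0208, 0.0674 without 72 h replicate 3). Eif4g2, a scaffold of cap-independent initiation, had 67.7, 61.7 and 66.1 FPKM at 72 h, against 125, 94.9 and 107 FPKM in vehicle, a log2 fold change of -0.73 ± 0.19 (limma adjusted p = 0.0225, 0.0531 without 72 h replicate 3). Both were below every vehicle library, and neither is in the leave-one-out set.

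Eif4ebp1 encodes the substrate named in the series title. It had 54.3, 95.1 and 86.8 FPKM at 72 h, against 51.8, 113 and 75.3 FPKM in vehicle. Its log2 fold change was 0.01 ± 0.29 (limma adjusted p = 0.985), between -0.26 and 0.29 leaving out 1 library and -0.17 with quantile normalization, and the ranges overlapped. Eif4e, the cap-binding protein that 4EBP1 restrains, had 19.2, 28.5 and 20.9 FPKM at 72 h, against 44.1, 39.4 and 41.7 FPKM in vehicle. The libraries did not overlap, but the difference missed the threshold (log2 fold change -0.86 ± 0.31, limma adjusted p = 0.0694). The other 21 members, among them Eif4ebp2, Rps6kb1, Rps6, Ulk1 and Tfeb, did not pass, with log2 fold changes of -0.53 for Rps6kb1 (S6 kinase), 0.40 for Ulk1 (a starter of autophagy) and 0.57 for Tfeb (a regulator of lysosome genes).

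Among the factors that carry out translation, 5 of 37 were lower and none higher, and 4 were lower without 72 h replicate 3. They were the 3 subunits of eIF2, which brings the initiator tRNA to the ribosome, and the eIF3 subunits Eif3a and Eif3j1. Eif2s1 had 20.4, 21.7 and 28.2 FPKM at 72 h, against 41.9, 35.5 and 40.5 FPKM in vehicle (log2 fold change -0.73 ± 0.19, limma adjusted p = 0.0251, up to 0.081 without vehicle replicate 1). The list's median log2 fold change was -0.32, and none of its members is in the leave-one-out set.

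Messages for tRNA charging were lower in 5 of 22 genes and higher in none. All 22 tested cytosolic synthetases and their cofactors had a negative log2 fold change, with a median of -0.60, and 3 passed without the third library. Iars, the isoleucine enzyme, had 18.1, 12.5 and 13.8 FPKM at 72 h, against 39.6, 33.1 and 35.4 FPKM in vehicle (log2 fold change -1.24 ± 0.21, limma adjusted p = 0.00739, up to 0.0359). Aimp2, a scaffold of the multi-synthetase complex, had 17.2, 20 and 16.9 FPKM at 72 h, against 32.2, 39.8 and 39.6 FPKM in vehicle (log2 fold change -1.0 ± 0.16, limma adjusted p = 0.00739, up to 0.0359). Each was at less than every vehicle value in each library at 72 h, and both are in the leave-one-out set, with Farsb, a subunit of the phenylalanine enzyme.

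Ribosome assembly held 28 lower genes and no higher gene at 72 h. All 58 tested genes of ribosome biogenesis had a negative log2 fold change, with a median of -0.78 and of -0.65 without 72 h replicate 3. Of the 28, 10 passed without 72 h replicate 3, and over the fits that left out 1 library the count was 5 to 40. Dkc1, the pseudouridine synthase of ribosomal RNA and a subunit of telomerase, had 18.2, 13.1 and 13.5 FPKM at 72 h, against 46.1, 40 and 35.2 FPKM in vehicle. All 3 libraries at 72 h were at less than the lowest vehicle value, and the log2 fold change was -1.39 ± 0.22 (limma adjusted p = 0.00739, up to 0.0359). Rrp12, which helps export ribosomal subunits from the nucleus, had 12.5, 13.7 and 11.1 FPKM at 72 h, against 25.7, 30.6 and 24 FPKM in vehicle (log2 fold change -1.05 ± 0.19, limma adjusted p = 0.00869, up to 0.0359). Wdr3 and Wdr36, parts of the small subunit processome, had log2 fold changes of -1.24 and -0.87. With Rrn3, which recruits RNA polymerase I to ribosomal DNA, these are the 5 members of the leave-one-out set.

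MYC binds the E-box CACGTG, and the promoters of ribosome biogenesis genes were read for it as a description. RefSeq promoter windows on build GRCm38.p6 were at hand for 51 of the 58 genes. In the 250 bases before the start, 4 held the motif, which is the same on both strands: Nop2, Rrn3, Utp18 and Imp4. All 4 were among the 28 lower genes. Among all tested genes with a window, 912 of 9029 held it, or 10.1%, and the members' share was not above that. Sequences from 2 of them are shown 5′ to 3′ along the gene, with the E-box in capitals, as members whose level and E-box can be set side by side. That of Rrn3 is chr16:13780457-13780516 on the plus strand, in a promoter with 2 matches, and that of Nop2 is chr6:125131796-125131855 on the plus strand.
Rrn3: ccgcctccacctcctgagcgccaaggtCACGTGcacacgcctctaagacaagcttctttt
Nop2: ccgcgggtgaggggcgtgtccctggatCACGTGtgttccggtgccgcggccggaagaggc

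Rrn3 had 10.7, 14.6 and 8.36 FPKM at 72 h, against 21, 22 and 21.2 FPKM in vehicle, a log2 fold change of -0.91 ± 0.19 (limma adjusted p = 0.0126, 0.0447 without 72 h replicate 3). Nop2, an RNA methyltransferase of the nucleolus, had 45.9, 93.3 and 38.4 FPKM at 72 h, against 88.2, 118 and 113 FPKM in vehicle, a log2 fold change of -0.93 ± 0.25 (limma adjusted p = 0.027, 0.106 without 72 h replicate 3). The libraries of Rrn3 did not overlap between the groups, while Nop2 in 72 h replicate 2 lay above the lowest vehicle library.

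In purine and pyrimidine synthesis the genes of the first committed steps were among those that were lower. Of 28 tested genes 12 were lower and none higher, 7 passed without 72 h replicate 3, and the count was 5 to 17 over the fits that left out 1 library. Ppat, which catalyses the first committed step of purine synthesis, had 10.3, 13.1 and 8.05 FPKM at 72 h, against 34.3, 26.7 and 27.8 FPKM in vehicle (log2 fold change -1.43 ± 0.22, limma adjusted p = 0.00739, up to 0.0359). Gart, a later purine enzyme, had 14.4, 21.4 and 11.3 FPKM at 72 h, against 44.5, 45.4 and 37.2 FPKM in vehicle (log2 fold change -1.41 ± 0.24, limma adjusted p = 0.00752, up to 0.0359). Cad, which starts pyrimidine synthesis and is a known target of S6 kinase, had 13.7, 21.2 and 13 FPKM at 72 h, against 34, 41.9 and 33.1 FPKM in vehicle (log2 fold change -1.16 ± 0.24, limma adjusted p = 0.0124, up to 0.0454). In each gene the highest library at 72 h was below the lowest vehicle library. Atic and Gmps, which finish the purine route to IMP and GMP, complete the 5 members in the leave-one-out set.

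The one-carbon units that feed purine and thymidine synthesis are made by enzymes of which 4 of 23 tested, together with polyamine genes, were lower and none higher. Mthfd2, the mitochondrial folate enzyme of proliferating cells, had 2.42, 17.7 and 7.76 FPKM at 72 h, against 26.3, 32.3 and 27.5 FPKM in vehicle. Its values differed more between the libraries at 72 h than in vehicle, and its log2 fold change was -1.84 ± 0.45 (limma adjusted p = 0.0191), with adjusted p of 0.0502 to 0.0557 without 72 h replicate 1 or any 1 vehicle library. Amd1, which supplies decarboxylated S-adenosylmethionine for polyamines, had 20.7, 27.2 and 12.4 FPKM at 72 h, against 54.7, 47.7 and 48.8 FPKM in vehicle (log2 fold change -1.35 ± 0.27, limma adjusted p = 0.0109, up to 0.0472). Mthfd1 and Mthfd1l, other folate enzymes, also passed, but not without 72 h replicate 3 (limma adjusted p = 0.0811 and 0.131).

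Targets of ATF4, the transcription factor that mTORC1 and amino acid shortage both raise, did not move together. Of 25 tested, 5 were lower and 2 higher, and the median log2 fold change was -0.17. Aldh18a1, which starts proline synthesis, had 6.34, 10 and 4.72 FPKM at 72 h, against 31.7, 26.9 and 30.1 FPKM in vehicle (log2 fold change -1.98 ± 0.27, limma adjusted p = 0.00709, up to 0.0359). Slc7a1, a carrier of arginine and lysine, had 3.34, 6.21 and 2.51 FPKM at 72 h, against 14.9, 13.5 and 12.6 FPKM in vehicle (log2 fold change -1.61 ± 0.28, limma adjusted p = 0.00752, up to 0.0359). Both are in the leave-one-out set, and the glutamine carrier Slc1a5, the asparagine synthetase Asns and Sesn2 were the other lower members. The higher members were Cebpb and Ddit3, which encode C/EBPβ and CHOP. Cebpb had 154, 139.8 and 549 FPKM at 72 h, against 33.7, 75 and 62.8 FPKM in vehicle (log2 fold change 2.05 ± 0.48, limma adjusted p = 0.0167, 0.0602 without 72 h replicate 3).

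Lipid and sugar metabolism were read by list. In cholesterol synthesis and uptake 4 of 24 tested genes were lower and none higher, and without 72 h replicate 3 only Idi1 passed. Of the 24, 23 had a negative log2 fold change, with a median of -0.70, and of -0.57 without that library. Idi1, isopentenyl diphosphate isomerase, had 2.56, 1.16 and 2.67 FPKM at 72 h, against 16.9, 8.3 and 9.08 FPKM in vehicle (log2 fold change -1.96 ± 0.41, limma adjusted p = 0.0124, up to 0.055 without vehicle replicate 1). Every library at 72 h was below every vehicle library.

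Acly, Acaca and Fasn carry acetyl units from citrate to fatty acids, and all 3 passed, with none higher among 22 genes of fatty acid and triglyceride synthesis. Acly had 26.3, 28.2 and 20.8 FPKM at 72 h, against 60.3, 52.4 and 58.1 FPKM in vehicle (log2 fold change -1.16 ± 0.29, limma adjusted p = 0.0211, 0.0668 without 72 h replicate 3). Fasn had 21.8, 68.5 and 15.6 FPKM at 72 h, against 65.6, 88.8 and 96.4 FPKM in vehicle, so that 72 h replicate 2 lay within the vehicle range (log2 fold change -1.49 ± 0.40, limma adjusted p = 0.026, 0.105 without 72 h replicate 3). No member of either lipid list is in the leave-one-out set.

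In glycolysis 1 of 25 tested genes passed, the lactate carrier Slc16a1, with 45, 38.6 and 27.2 FPKM at 72 h, against 72.5, 69.1 and 70.9 FPKM in vehicle (log2 fold change -0.95 ± 0.22, limma adjusted p = 0.0163, 0.0597 without 72 h replicate 3). Of 7 genes of the pentose phosphate pathway, G6pdx, Pgd and Rpe were lower, and none passed without that library. Of 50 oxidative phosphorylation genes 3 were higher, Atp5k, Cox6c and Ndufa2, and of 42 lysosome and autophagy genes 2 were higher, Map1lc3a and Ctsa. Neither share was above the 6.61% of all tested genes that were higher. Log2 fold changes were positive in 38 of the 50 and 35 of the 42, with medians of 0.42 and 0.47. Every library at 72 h lay above vehicle in 12 and 15 genes, against 13.4% of all genes. Every one lay below vehicle in 2 and 1 genes, against 20.4%. Map1lc3a, which encodes an LC3 protein of the autophagosome, had 37.8, 28.6 and 56.4 FPKM at 72 h, against 13.4, 22.4 and 14.2 FPKM in vehicle (log2 fold change 1.23 ± 0.29, limma adjusted p = 0.0174, 0.0657 without 72 h replicate 3). None of these 5 higher genes passed without 72 h replicate 3.

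**Figure D2:**
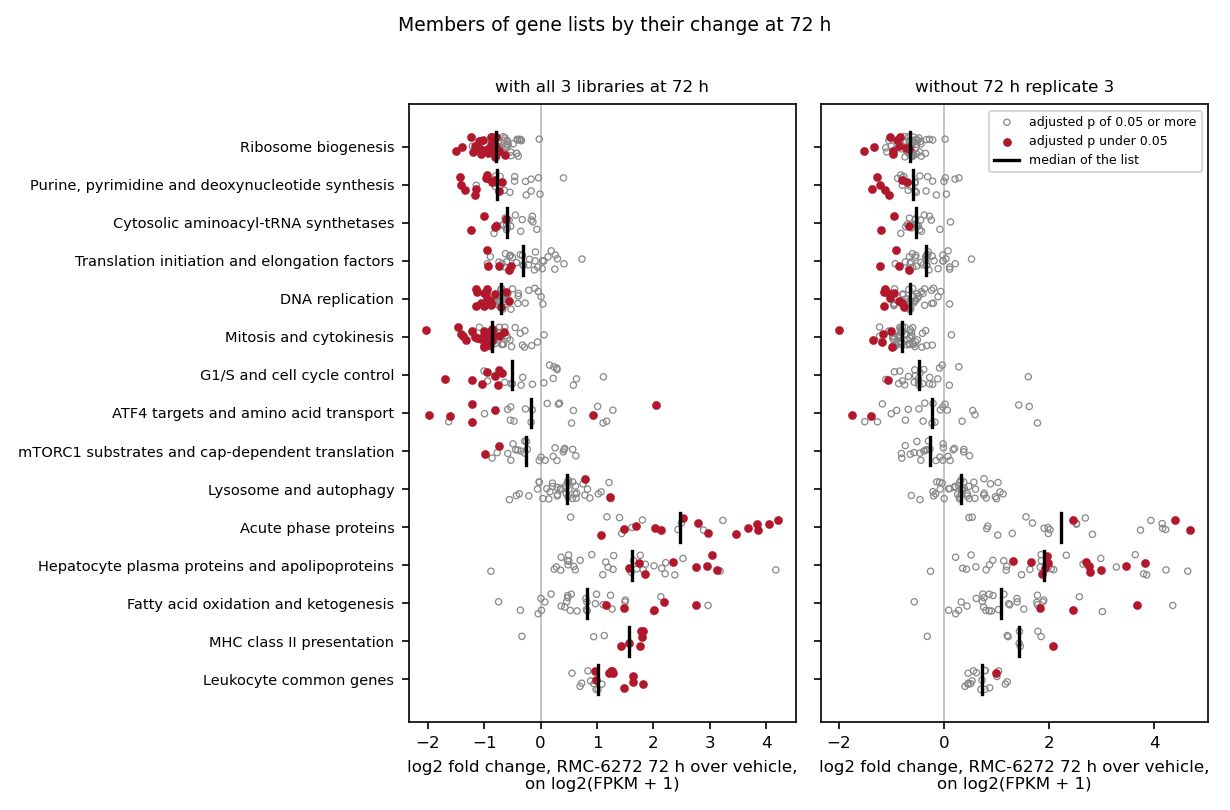
Log2 fold change of RMC-6272 72 h over vehicle on log2(FPKM + 1) (horizontal axis) for each tested member of 15 gene lists (rows), with all 3 libraries at 72 h on the left and without 72 h replicate 3 on the right. Filled points passed an adjusted p under 0.05 and black bars are list medians. All 58 ribosome biogenesis genes lie left of 0 with the 3 libraries, and all 24 acute phase genes lie right of 0.

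Many genes of DNA replication and mitosis were lower, while Mki67, the usual marker of cycling cells, did not pass. In DNA replication 17 of 45 tested genes were lower and none higher, 9 of them without 72 h replicate 3, and the count was 4 to 26 over the fits that left out 1 library. Pola2, a subunit of DNA polymerase alpha, had 14, 15.2 and 13.9 FPKM at 72 h, against 30.2, 30.7 and 26.3 FPKM in vehicle (log2 fold change -0.97 ± 0.19, limma adjusted p = 0.0115, up to 0.0466). Chaf1a, which loads histones on new DNA, had 2.27, 2.07 and 2.57 FPKM at 72 h, against 6.28, 6.32 and 4.49 FPKM in vehicle (log2 fold change -1.01 ± 0.18, limma adjusted p = 0.00781, up to 0.0375). Rpa1, which coats single-stranded DNA, had 12.8, 14.2 and 11.5 FPKM at 72 h, against 24.5, 24.4 and 23.7 FPKM in vehicle (log2 fold change -0.87 ± 0.16, limma adjusted p = 0.00899, up to 0.0413). With Uhrf1, which helps copy DNA methylation, these make up the leave-one-out set of the list.

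E2F factors bind promoters of S phase genes at sites such as TTTCGCGC. This motif or its reverse complement GCGCGAAA was in the 250 bases before the start of 6 of the 37 replication genes with a RefSeq window on GRCm38.p6: Mcm5, Mcm6, Orc1, Rfc3, Uhrf1 and Dnmt1. Among all tested genes with a window, 0.609% held it. The motif was chosen after the list's counts were known, and its presence is a description of the windows. Of the 6 genes, Mcm5, Mcm6 and Uhrf1 were lower at 72 h and the other 3 did not pass. The windows of those 3 lower genes are shown 5′ to 3′ along the gene, with the motif in capitals, to set their sequence beside their values. They lie at chr17:56304102-56304161 on the plus strand for Uhrf1, chr1:128359778-128359837 on the minus strand for Mcm6 and chr8:75109330-75109389 on the plus strand for Mcm5.
Uhrf1: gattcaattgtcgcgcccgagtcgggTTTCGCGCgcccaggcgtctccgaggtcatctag
Mcm6: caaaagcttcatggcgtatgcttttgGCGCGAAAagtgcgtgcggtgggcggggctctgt
Mcm5: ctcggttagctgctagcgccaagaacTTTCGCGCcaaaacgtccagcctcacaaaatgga

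Uhrf1 had 15.1, 23.6 and 18.6 FPKM at 72 h, against 42.5, 48.3 and 38.6 FPKM in vehicle, a log2 fold change of -1.15 ± 0.24 (limma adjusted p = 0.0124, 0.0352 without 72 h replicate 3). Mcm6, a subunit of the replicative helicase, had 28.4, 32.4 and 32 FPKM at 72 h, against 73.7, 69 and 62.8 FPKM in vehicle, a log2 fold change of -1.12 ± 0.26 (limma adjusted p = 0.0157, 0.0404 without 72 h replicate 3). Mcm5, another helicase subunit, had 19.8, 25.3 and 20.4 FPKM at 72 h, against 44.2, 48.4 and 40.6 FPKM in vehicle, a log2 fold change of -1.0 ± 0.26 (limma adjusted p = 0.0236, 0.0647 without 72 h replicate 3). In all 3 genes the libraries at 72 h lay below those of vehicle.

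At the entry to S phase 8 of 26 tested genes were lower and none higher, and 1 without 72 h replicate 3. That gene, Mybl2, a partner of the MuvB complex that turns on G2 and M phase genes, had 10.6, 15.3 and 9.21 FPKM at 72 h, against 25.5, 31.6 and 26.6 FPKM in vehicle (log2 fold change -1.21 ± 0.24, limma adjusted p = 0.0107, up to 0.0413). Skp2, which targets the inhibitor p27 for destruction, had 4.48, 10 and 1.33 FPKM at 72 h, against 17.1, 14.4 and 15.8 FPKM in vehicle (log2 fold change -1.69 ± 0.40, limma adjusted p = 0.0178, 0.0607 without 72 h replicate 3). E2f1, a driver of S phase genes, had 7.27, 10.3 and 5.61 FPKM at 72 h, against 11.3, 14.5 and 14 FPKM in vehicle (log2 fold change -0.74 ± 0.20, limma adjusted p = 0.0266, 0.102 without 72 h replicate 3). The lowest value of Skp2 and of E2f1 was in 72 h replicate 3.

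In mitosis and cytokinesis 25 of 55 tested genes were lower and none higher, 54 of the 55 had a negative log2 fold change, and the median was -0.85. The count was 6 without 72 h replicate 3 and 2 to 36 over the fits that left out 1 library. Kif20a, a kinesin of cytokinesis, had 4.17, 3.16 and 3.5 FPKM at 72 h, against 26.1, 13.8 and 15.2 FPKM in vehicle (log2 fold change -2.02 ± 0.30, limma adjusted p = 0.00739, up to 0.0359). Ccnf, cyclin F, had 11, 12.4 and 6.76 FPKM at 72 h, against 31.6, 28.2 and 23.2 FPKM in vehicle (log2 fold change -1.41 ± 0.23, limma adjusted p = 0.00739, up to 0.0359). Those 2 form the leave-one-out set of the list, and Prc1 and Kif11 passed without 72 h replicate 3 but not without vehicle replicate 1 (limma adjusted p = 0.0538 and 0.0558).

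Mki67 had 10.1, 21.4 and 20.4 FPKM at 72 h, against 23.9, 20 and 24.9 FPKM in vehicle. Libraries 2 and 3 at 72 h lay within the vehicle range, and the log2 fold change was -0.45 ± 0.39 (limma adjusted p = 0.437). In DNA repair 8 of 23 tested genes were lower and none higher, 3 of them without 72 h replicate 3. Exo1, an exonuclease of mismatch repair and recombination, had 2.15, 3.35 and 1.28 FPKM at 72 h, against 7.09, 6.37 and 6.11 FPKM in vehicle (log2 fold change -1.25 ± 0.24, limma adjusted p = 0.00927, up to 0.0454).

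Single genes that mature hepatocytes use for secretion and metabolism were higher at 72 h, with a wide spread between libraries in both groups. Of 40 tested plasma protein and apolipoprotein genes 8 were higher and none lower, 39 had a positive log2 fold change, and the median was 1.62. Without 72 h replicate 3, which had the least hepatocyte RNA of the 3, 12 were higher and the median was 1.89. Over the fits that left out 1 library the count was 1 to 12, lowest without vehicle replicate 3, and with the description code block no member passed. Vehicle replicate 1 had the highest hepatocyte marker sum in vehicle and vehicle replicate 3 the lowest, and the part of this spread in the results was not tested.

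Serpina1a, an alpha-1 antitrypsin gene with near-identical copies among which reads may be split, had 340.5, 347 and 209 FPKM at 72 h, against 92.9, 74.2 and 92.6 FPKM in vehicle. Its 3 libraries at 72 h were all at more than the highest vehicle value, and the log2 fold change was 1.75 ± 0.34 (limma adjusted p = 0.0105, up to 0.0413). Apoa1, the main protein of HDL, had 8537, 6503 and 3539 FPKM at 72 h, against 1251, 1340 and 878 FPKM in vehicle (log2 fold change 2.35 ± 0.62, limma adjusted p = 0.0249, up to 0.0796 without vehicle replicate 3). Ahsg, fetuin-A, had 3634, 905 and 2423 FPKM at 72 h, against 528, 308 and 73.5 FPKM in vehicle (log2 fold change 3.12 ± 0.71, limma adjusted p = 0.0157, up to 0.0636 without vehicle replicate 3). Rbp4, the carrier of retinol, had 1570, 1063 and 1263 FPKM at 72 h, against 415, 439 and 247 FPKM in vehicle (log2 fold change 1.85 ± 0.44, limma adjusted p = 0.0174, up to 0.0678 without vehicle replicate 3). All 4 stayed past the threshold without 72 h replicate 3.

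Albumin itself passed only without the third library. Alb had 10700, 8792 and 2063 FPKM at 72 h, against 2849, 1425 and 732 FPKM in vehicle, so that 72 h replicate 3 lay within the vehicle range. Its log2 fold change was 2.01 ± 0.72 (limma adjusted p = 0.0655), and 2.75 without 72 h replicate 3 (limma adjusted p = 0.0421). Among coagulation factors 3 of 19 tested were higher and none lower, and F11, factor XI, had 21.6, 8.74 and 10.9 FPKM at 72 h, against 3.22, 1.65 and 0.559 FPKM in vehicle (log2 fold change 2.41 ± 0.43, limma adjusted p = 0.00843, up to 0.0359). Among complement genes 2 of 21 were higher and none lower. C4b, a complement component with a close copy in the genome, had 168, 98.2 and 122 FPKM at 72 h, against 31.2, 25.4 and 29.5 FPKM in vehicle (log2 fold change 2.11 ± 0.45, limma adjusted p = 0.0133, up to 0.0472). F11 and C4b are in the leave-one-out set, and every library at 72 h was above every vehicle library in both.

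Among metabolic genes of the adult liver single members had large rises. Pck1, which commits carbon to gluconeogenesis, had 299, 71.2 and 36.6 FPKM at 72 h, against 19.9, 1.71 and 0.675 FPKM in vehicle. Every library at 72 h was above every vehicle library, but the first at 72 h was far above the others, and the log2 fold change was 4.36 ± 1.21 (limma adjusted p = 0.0279, up to 0.104 without vehicle replicate 3). G6pc, which releases glucose from glucose 6-phosphate, had 23.7, 12.4 and 13.7 FPKM at 72 h, against 3.13, 2 and 3.16 FPKM in vehicle (log2 fold change 2.19 ± 0.58, limma adjusted p = 0.0256, 0.0583 without 72 h replicate 3). With Gckr, the regulator of glucokinase, these were the 3 of 16 tested genes of gluconeogenesis and glycogen that passed.

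In fatty acid oxidation and ketogenesis 5 of 34 were higher and none lower, 3 of them without 72 h replicate 3, and no member passed without vehicle replicate 1, vehicle replicate 3 or 72 h replicate 1, or with the description code block. Fabp1, the liver fatty acid carrier, had 5633, 3265 and 623 FPKM at 72 h, against 534, 366 and 192 FPKM in vehicle (log2 fold change 2.75 ± 0.73, limma adjusted p = 0.0254, up to 0.0923 without vehicle replicate 3). Of 36 tested genes of bile acid, drug and steroid metabolism 3 were higher and none lower, against 6.61% and 7.94% of all genes. All 36 log2 fold changes were positive, with a median of 1.5, and of 2.64 without 72 h replicate 3. Of 29 genes of the urea cycle and amino acid breakdown 3 were higher, of which Hal, which starts histidine breakdown, also passed without 72 h replicate 3 (log2 fold change 1.26 ± 0.28, limma adjusted p = 0.0148, 0.0382 without that library and 0.0538 without vehicle replicate 1). No member of these 4 metabolic lists is in the leave-one-out set.

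Among liver transcription factors, which drive hepatocyte genes, the median log2 fold change was 0.098. Of 18 tested, 2 were higher, Cebpb and Foxa3, and 1 was lower, and none of these passed without 72 h replicate 3. Among all tested genes 6.61% were higher and 7.94% lower. Cebpa passed only without 72 h replicate 3, with a log2 fold change of 1.32 (limma adjusted p = 0.0356), against 0.87 with it (0.0976).

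Among 22 tested fetal liver and liver tumour markers 2 were lower and none higher, with and without the third library. L1td1, an RNA-binding protein of pluripotent cells, had 0.168, 3.66 and 0.0179 FPKM at 72 h, against 14, 10.5 and 12.9 FPKM in vehicle. It was close to 0 in libraries 1 and 3 at 72 h, and the log2 fold change was -2.92 ± 0.44 (limma adjusted p = 0.00739, up to 0.0359). Igf2bp3, an oncofetal RNA-binding protein, had 2.02, 0.988 and 2.32 FPKM at 72 h, against 6.46, 4.03 and 3.73 FPKM in vehicle (log2 fold change -1.05 ± 0.27, limma adjusted p = 0.0236, up to 0.0944 without vehicle replicate 1). Afp, the classic fetal marker of liver cancer, had 1828, 1500 and 2728 FPKM at 72 h, against 1291, 1869 and 1075 FPKM in vehicle, overlapping ranges (limma adjusted p = 0.556).

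Acute phase genes, which hepatocytes switch on when interleukin 6 activates STAT3, were higher in 14 of 24 tested and lower in none. All 24 had a positive log2 fold change, with a median of 2.46. Without 72 h replicate 3 the median was 2.23 and 3 passed, and no member passed without vehicle replicate 2, without vehicle replicate 3 or with the description code block. Fgl1, a secreted fibrinogen-like protein that binds LAG3, had 115, 24.9 and 37 FPKM at 72 h, against 4.8, 1.17 and 0.424 FPKM in vehicle (log2 fold change 4.21 ± 1.03, limma adjusted p = 0.0201, 0.0473 without 72 h replicate 3). Hamp, hepcidin, which lowers iron export, had 3161, 1269 and 357 FPKM at 72 h, against 282, 113 and 13.6 FPKM in vehicle (log2 fold change 3.86 ± 1.14, limma adjusted p = 0.0351, 0.0435 without 72 h replicate 3). In both genes every library at 72 h was above every vehicle library, and the vehicle libraries themselves were widely spread.

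Orm1, an orosomucoid with near-identical copies, had 292, 226 and 205 FPKM at 72 h, against 72, 10.5 and 2.67 FPKM in vehicle (log2 fold change 4.04 ± 1.06, limma adjusted p = 0.0241, 0.0585 without 72 h replicate 3). Serpina3n, an inhibitor of serine proteases, had 80.4, 47 and 232 FPKM at 72 h, against 24.4, 3.65 and 4.83 FPKM in vehicle (log2 fold change 3.46 ± 0.93, limma adjusted p = 0.0256, 0.0951 without 72 h replicate 3). Lcn2, lipocalin 2, which neutrophils also store, had 76.2, 13.5 and 518 FPKM at 72 h, against 11.6, 4.32 and 1.94 FPKM in vehicle (log2 fold change 3.84 ± 1.08, limma adjusted p = 0.03, 0.127 without 72 h replicate 3). Cd14, a receptor of myeloid cells as well as an acute phase protein, had 9.21, 8.6 and 317 FPKM at 72 h, against 3.77, 2.88 and 2.53 FPKM in vehicle (log2 fold change 2.97 ± 0.88, limma adjusted p = 0.0351, 0.0595 without 72 h replicate 3). Lcn2 and Cd14 were highest in 72 h replicate 3, as the neutrophil markers were, and the part of those cells in the result was not tested. Orm1 was highest in 72 h replicate 1, the library with the largest hepatocyte marker sum.

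STAT factors bind sites of the form TTCNNNGAA, which reads the same on both strands. It was in the 250 bases before the start of 5 of 17 acute phase genes with a RefSeq window on GRCm38.p6, Apcs, Itih4, Hamp, Steap4 and Socs3, and in 7.02% of all tested genes with a window. Itih4, Hamp and Socs3 were among the 14 higher genes, and Apcs passed only without 72 h replicate 3. The windows of those 3 are shown 5′ to 3′ along the gene with the match in capitals, as a description of the sequence and not as evidence of binding. They lie at chr7:30944092-30944151 on the minus strand for Hamp, chr14:30886400-30886459 on the plus strand for Itih4 and chr11:117969486-117969545 on the minus strand for Socs3.
Hamp: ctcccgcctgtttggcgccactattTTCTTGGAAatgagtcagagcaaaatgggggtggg
Itih4: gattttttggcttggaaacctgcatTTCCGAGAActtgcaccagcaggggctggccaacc
Socs3: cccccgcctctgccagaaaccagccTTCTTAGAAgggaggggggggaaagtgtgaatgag

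Itih4 had 373, 108 and 73 FPKM at 72 h, against 39.4, 7.34 and 3.25 FPKM in vehicle (log2 fold change 3.68 ± 1.03, limma adjusted p = 0.0284, 0.0502 without 72 h replicate 3). Socs3, which shuts off STAT3 signalling, had 5.08, 8.08 and 28.4 FPKM at 72 h, against 2.04, 3.26 and 4.85 FPKM in vehicle (log2 fold change 1.47 ± 0.44, limma adjusted p = 0.0374, 0.154 without 72 h replicate 3). Socs3, Mcm5, Mcm6, Uhrf1, Rrn3 and Nop2 lie outside the rule for named genes and were chosen for their windows after their values were seen.

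Immune genes were read by list, and few of their calls were kept without the third library. Of 9 tested MHC class II genes 6 were higher and none lower, 1 without 72 h replicate 3, and none without vehicle replicate 1, vehicle replicate 3 or 72 h replicate 1, or with the description code block. H2-Ab1, a class II beta chain, had 120.3, 43.1 and 37.8 FPKM at 72 h, against 11.9, 38.3 and 9.31 FPKM in vehicle (log2 fold change 1.77 ± 0.46, limma adjusted p = 0.0236, 0.037 without 72 h replicate 3). Vehicle replicate 2 lay above the lowest library at 72 h. In class I presentation 2 of 22 were higher, against 6.61% of all genes. They were H2-D1 and H2-Q4, members of a family of near-identical genes, and neither passed without 72 h replicate 3. None of 35 tested interferon response genes passed in limma, 5 were lower and 0 higher at an unadjusted p under 0.05, against 17.3% and 16.4% of all genes, and the median log2 fold change was -0.43. The smallest p was that of Usp18, with 1.84, 1.92 and 3.56 FPKM at 72 h, against 9.89, 7.42 and 4.52 FPKM in vehicle (log2 fold change -1.25 ± 0.42, limma adjusted p = 0.0537).

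Among 19 tested genes common to leukocytes 10 were higher and none lower, but 1 passed without 72 h replicate 3, without vehicle replicate 1, without vehicle replicate 3 or with the description code block. The gene kept without 72 h replicate 3, Cd52, a surface peptide of lymphocytes and monocytes, had 19.2, 13.6 and 30.6 FPKM at 72 h, against 7.11, 10.2 and 6.12 FPKM in vehicle (log2 fold change 1.28 ± 0.26, limma adjusted p = 0.0115, up to 0.0472). The colony-stimulating factor Csf1, which sustains macrophages, had 5.1, 2.11 and 10.8 FPKM at 72 h, against 1.12, 0.889 and 0.907 FPKM in vehicle (log2 fold change 1.62 ± 0.34, limma adjusted p = 0.0124, up to 0.0463). Both are in the leave-one-out set. Summed levels of 24 macrophage markers were 2259, 981 and 1857 FPKM at 72 h, against 765, 965 and 632 FPKM in vehicle, and those of 20 T cell markers were 25.3, 19.5 and 46 FPKM at 72 h, against 14.9, 13.7 and 13.5 FPKM in vehicle. Of 8 tested T cell markers 3 were higher, Cd3d, Trbc1 and Trbc2, and none passed without 72 h replicate 3. Cd8a was at 0.0778, 0.115 and 0.14 FPKM at 72 h, against 0.166, 0.0177 and 0.0674 FPKM in vehicle, below the level required for the test.

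Checkpoint genes and ligands held 1 higher and 1 lower member among 9 tested, against 6.61% and 7.94% of all genes. Log2 fold changes were positive in 7 of the 9, with a median of 0.53, and of 0.22 without 72 h replicate 3. Cd47, a signal that keeps macrophages from engulfing a cell, was higher. Cd276, the ligand B7-H3, was lower, and neither gene passed without 72 h replicate 3. Cd276 had 9.56, 14.6 and 9.23 FPKM at 72 h, against 19.1, 21.2 and 23.4 FPKM in vehicle (log2 fold change -0.90 ± 0.28, limma adjusted p = 0.04, 0.119 without 72 h replicate 3). Cd274, which encodes PD-L1, had 2.32, 1.43 and 7.88 FPKM at 72 h, against 1.68, 2.58 and 0.504 FPKM in vehicle. Its ranges overlapped, with the highest value in 72 h replicate 3 (limma adjusted p = 0.19).

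The summed level of neutrophil markers was higher in each library at 72 h than in any vehicle library, and by far the highest in the third. In the first and second libraries at 72 h most of that sum came from markers other than S100a8, S100a9 and Retnlg. S100a8 and S100a9 encode the 2 chains of calprotectin, an abundant neutrophil protein. S100a8 had 6.07, 4.65 and 842 FPKM at 72 h, against 0.91, 0.278 and 0.392 FPKM in vehicle (log2 fold change 4.42 ± 1.23, limma adjusted p = 0.0279). Without 72 h replicate 3 its log2 fold change was 2.07 (limma adjusted p = 0.0404), and without 1 vehicle library the adjusted p was 0.0682 to 0.0762. S100a9 had 11.6, 6.24 and 1665 FPKM at 72 h, against 1.16, 0.493 and 0.313 FPKM in vehicle (log2 fold change 5.04 ± 1.28, and 2.56 without 72 h replicate 3, limma adjusted p = 0.022 and 0.0219). Retnlg, another neutrophil gene, had 3.39, 1.2 and 114 FPKM at 72 h, against 0.0887 FPKM in vehicle replicate 1, and was listed at 0 in vehicle replicates 2 and 3. Of 11 tested neutrophil markers 5 were higher and none lower, 3 of them without 72 h replicate 3, and none passed without any 1 vehicle library or with the description code block.

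Red cell and vessel genes were highest in that library. Hba-a1, an alpha globin with a near-identical copy, had 97.5, 1021 and 28110 FPKM at 72 h, against 168, 259 and 33.4 FPKM in vehicle, and did not pass (limma adjusted p = 0.109, 0.49 without 72 h replicate 3). Klf1, the factor that drives red cell formation, had 1.97, 2.28 and 6.86 FPKM at 72 h, against 0.602, 0.841 and 0.996 FPKM in vehicle, and passed with and without that library (limma adjusted p = 0.0167 and 0.0496, up to 0.0618 without vehicle replicate 1). Of 16 tested endothelial markers 2 were higher, Plvap and Eng, and of 14 stellate cell and fibroblast markers 4 were higher, Pdgfrb, Acta2, Cygb and Ecm1. None of these 6 passed without 72 h replicate 3. Plvap, a protein of fenestrated vessels, had 54.4, 25.4 and 269.6 FPKM at 72 h, against 15.5, 16.6 and 9.15 FPKM in vehicle (log2 fold change 2.36 ± 0.59, limma adjusted p = 0.0211, 0.0614 without 72 h replicate 3). In extracellular matrix 3 of 28 tested genes were higher, Mmp12, Fn1 and Tgfbi, and none passed without 72 h replicate 3. Of the 824 higher genes, 72 h replicate 3 was the highest library at 72 h in 500, and of the 990 lower genes it was the lowest in 624. The same counts over all tested genes were not made, so these show nothing particular to the called genes.

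Of 17 tested outputs of the ERK pathway 6 were higher and none lower, 1 without 72 h replicate 3 or without any 1 vehicle library, and none with the description code block. Phlda1, an early response gene, had 7.64, 7.82 and 8.13 FPKM at 72 h, against 3.12, 0.875 and 1.35 FPKM in vehicle (log2 fold change 1.75 ± 0.38, limma adjusted p = 0.0133, up to 0.0452). The mouse Myc gene, which is not the human transgene, had 7.85, 2.33 and 7.35 FPKM at 72 h, against 2.02, 1.73 and 1.14 FPKM in vehicle. All 3 libraries at 72 h lay above vehicle, the second closely, and the log2 fold change was 1.27 ± 0.39 (limma adjusted p = 0.0389, up to 0.128 without 72 h replicate 3). Human MYC reads that align to this entry would count in it, so it does not measure the transgene.

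The largest changes that passed with and without the third library are plotted by library. The rises were led by S100a9, S100a8, Pck1, Fgl1, Hamp, Retnlg and Ahsg, followed by Pzp, Adh1, Fam25c, Gadd45g and Fabp1. Gadd45g alone of these 12 is in the leave-one-out set. It encodes a growth arrest protein and had 16.7, 8.55 and 52.7 FPKM at 72 h, against 2.06, 2.55 and 1.42 FPKM in vehicle (log2 fold change 2.81 ± 0.54, limma adjusted p = 0.00976, up to 0.0413). Adh1, the main alcohol dehydrogenase of liver, had 621, 119.9 and 112 FPKM at 72 h, against 53.1, 22.1 and 14.6 FPKM in vehicle (log2 fold change 2.92 ± 0.76, limma adjusted p = 0.0236, up to 0.0836 without vehicle replicate 3). Fam25c was at 13, 67 and 4.45 FPKM at 72 h, against 3.55, 1.97 and 0 FPKM in vehicle, and lost its call in 5 of the 6 fits that left out 1 library.

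Of the 12 largest falls 9 are in the leave-one-out set. Bmp8b, a secreted ligand of the BMP family, had 1.6, 0.141 and 2.5 FPKM at 72 h, against 12.7, 25.7 and 21.5 FPKM in vehicle (log2 fold change -3.21 ± 0.53, limma adjusted p = 0.00739, up to 0.0359). Slc7a8, a carrier of neutral amino acids, had 3.46, 7.51 and 0.862 FPKM at 72 h, against 19.2, 13.1 and 16.3 FPKM in vehicle (log2 fold change -2.04 ± 0.36, limma adjusted p = 0.00843, up to 0.0413). Igfbp5, which binds insulin-like growth factors, had 2.9, 6.58 and 5.38 FPKM at 72 h, against 15.7, 12.1 and 23.6 FPKM in vehicle (log2 fold change -1.61 ± 0.32, limma adjusted p = 0.0101, up to 0.0413). Every library at 72 h was below every vehicle library in all 3. Rcc1, which loads GTP on Ran at chromatin, had 19.9, 34.2 and 13.5 FPKM at 72 h, against 64.6, 75.7 and 60.8 FPKM in vehicle (log2 fold change -1.62 ± 0.35, limma adjusted p = 0.0129, up to 0.0483). Wdr6, a partner in tRNA methylation, had 4.67, 4.45 and 1.89 FPKM at 72 h, against 14.1, 13.9 and 11 FPKM in vehicle (log2 fold change -1.64 ± 0.27, limma adjusted p = 0.00739, up to 0.0359). Kif20a, Aldh18a1, L1td1 and Slc7a1, described above, are the others of the 9, and Idi1, Mthfd2 and Car12 lost their calls without vehicle replicate 1 (limma adjusted p = 0.055, 0.0557 and 0.0502).

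The 12 largest rises that passed with the third library but not without it were Lrg1, Orm1, Lcn2, Itih4, Serpina3n, Sult1a1, Ly6d, Mrap, Apoc4, Cd14, Slpi and Ctgf. Lrg1, an acute phase glycoprotein, had 594, 106 and 229 FPKM at 72 h, against 35.9, 10.2 and 3.13 FPKM in vehicle. Its log2 fold change was 4.36 ± 1.16 with the third library and 4.40 without it, at adjusted p of 0.0256 and 0.0621 in limma, so the call ended without a smaller difference. Ctgf, a matrix protein induced by TGF-beta and YAP, had 9.05, 5.58 and 101 FPKM at 72 h, against 1.41, 1.73 and 1.88 FPKM in vehicle, with a log2 fold change of 2.83 ± 0.72 and of 1.61 without the third library (limma adjusted p = 0.0225 and 0.0601). Cd14 and Ctgf were far higher in the third library than in the other libraries at 72 h.

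**Figure D3:**
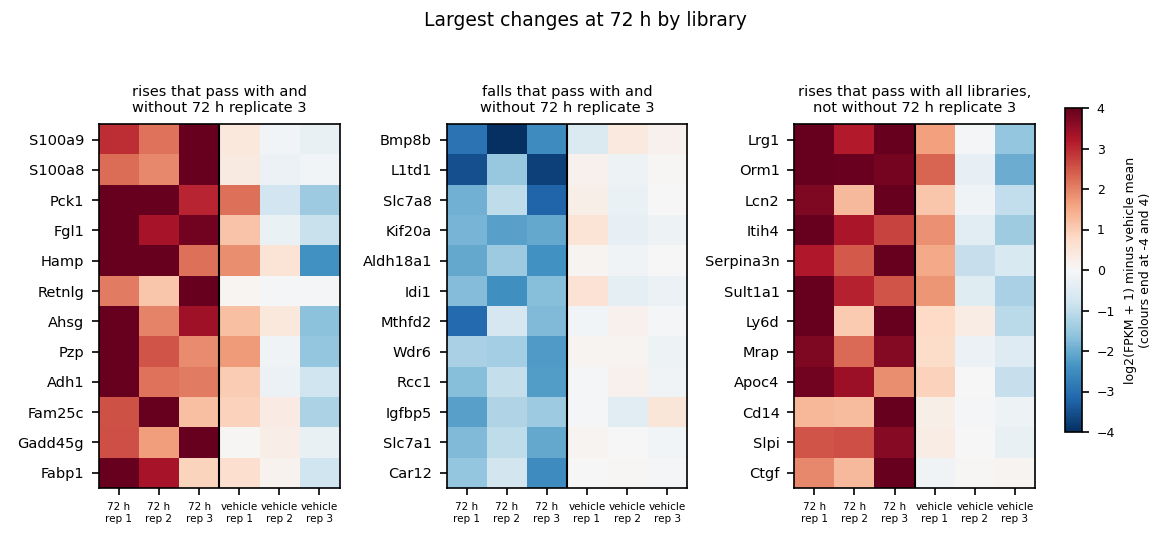
Log2(FPKM + 1) minus the mean of the vehicle libraries (colour, red higher and blue lower, ending at -4 and 4) for the 36 genes with the largest changes, in the 3 RMC-6272 72 h libraries left of the line and the 3 vehicle libraries right of it. The falls in the middle panel are blue in all 3 libraries at 72 h, while several rises differ between vehicle libraries as well, as in Hamp at 282, 113 and 13.6 FPKM.

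Set against earlier times of the same compound, the tumours at 72 h were not separated gene by gene. With 3 libraries each, 0 genes passed at 72 h against 24 h in limma (0.0% of 12470), with 1943 at an unadjusted p under 0.05, 1235 of them higher (9.9%) and 708 lower (5.68%). At 72 h against 48 h 0 genes passed (0.0%), with 1768 at an unadjusted p under 0.05, 963 higher (7.72%) and 805 lower (6.46%). Without 72 h replicate 3 there was 1 call in each. Without 72 h replicate 1 there were 1017 calls against 24 h and 541 against 48 h, without 72 h replicate 2 there were 7 against 48 h, and without 24 h replicate 2 there were 102 against 24 h. These contrasts hold no vehicle library but share the libraries at 72 h.

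The lists were also counted by unadjusted p, to be read against those background shares. Of 55 mitosis genes 32 were higher at 72 h than at 24 h at an unadjusted p under 0.05 and none lower, with a median difference of 0.66 on the log2 scale, and against 48 h 7 were lower and none higher, with a median of -0.27. Of 45 replication genes 17 were higher at 72 h than at 24 h and none lower, and 11 were lower than at 48 h and none higher. Of 24 acute phase genes 1 was higher at 72 h than at 24 h, and 14 were higher than at 48 h, none lower in either. Of 58 ribosome biogenesis genes 7 were higher and 1 lower than at 24 h, and 11 were lower than at 48 h. None of these genes passed after adjustment in limma. Of 12 red cell markers 8 were higher at 72 h than at 24 h and 10 higher than at 48 h, and of 11 neutrophil markers 8 were higher than at 48 h. The part of those cells in the list counts was not tested. Mthfd2 averaged 9.29 ± 7.75 FPKM at 72 h, against 1.41 ± 0.319 FPKM at 24 h (SD, n = 3 each), a log2 difference of 1.78 (limma unadjusted p = 0.000953, adjusted p = 0.128). Kif20a averaged 3.61 ± 0.515 FPKM at 72 h, against 9.18 ± 2.84 FPKM at 48 h (SD, n = 3 each), a log2 difference of -1.11 (limma unadjusted p = 0.00164, adjusted p = 0.193). Orm1 averaged 241 ± 45.1 FPKM at 72 h, against 8.59 ± 6.78 FPKM at 48 h (SD, n = 3 each), a log2 difference of 4.91 (limma unadjusted p = 0.000233, adjusted p = 0.133).

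**Figure D4:**
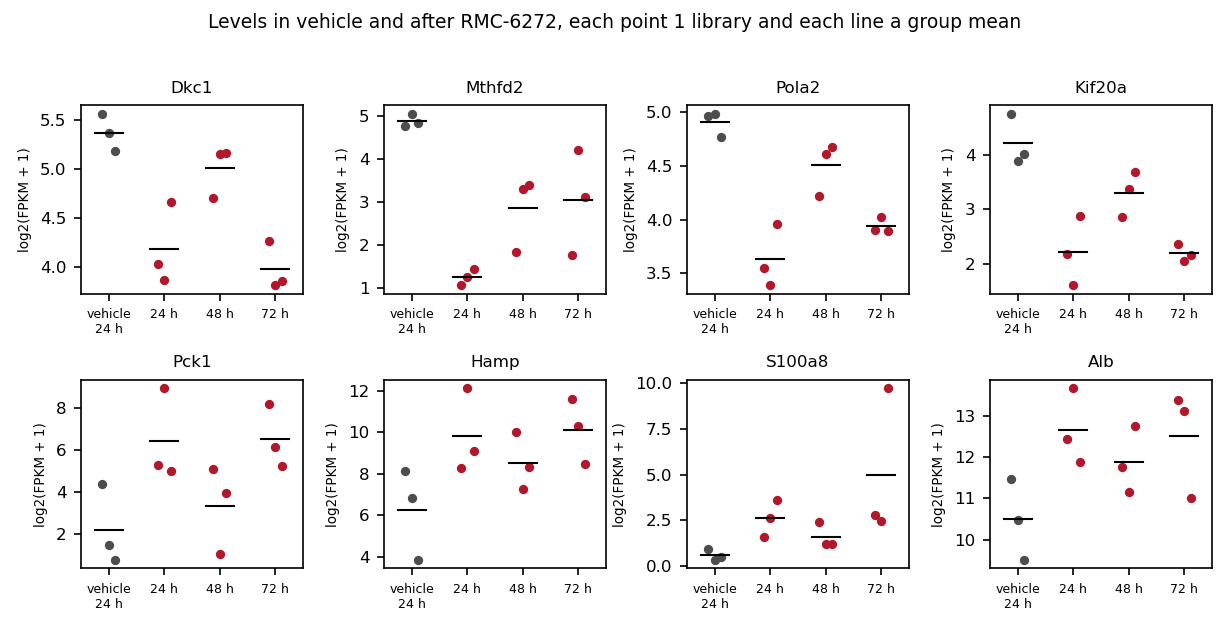
Log2(FPKM + 1) (vertical axis, each panel with its own range) of 8 genes in vehicle at 24 h (grey) and at 24, 48 and 72 h after the second dose of RMC-6272 (red). Points are libraries, 3 a group, and lines are group means. Kif20a at 72 h lies below all 3 vehicle libraries, and S100a8 at 72 h spans 6.07, 4.65 and 842 FPKM.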

How the data were processed

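RNA of 24 tumour libraries in 10 groups was sequenced, and the authors deposited 1 table of FPKM values per gene. STAR 2.5, HTSeq 0.6.1 and build mm9 are named in the submitters' processing notes, with no role given, and gene lengths and strand settings are not given in the sources used here. Identifier and name differed in 1022 of 1025 entries of 1 block, where low values were whole reads in 98.2% with the length of the named gene and in 3.96% with that of the identifier. Genes were therefore matched by name, and no gene of the lists or named here lies in that block. Of 566 such differences elsewhere, 1 concerns a gene named here, Ctgf, whose identifier carries its newer name. After 27 entries named by a number and 102 sharing a name were left out, 54403 remained. In the 6 libraries at least 98.2% of low values were whole multiples of 1 read within 0.02, which gave the depth. In the DOX_24h and RMC-4627_24h libraries, which share in the estimate of spread, it was 2.33 to 3.04%. The reason was not tested. log2(FPKM + 1) was fitted with limma 3.58.1 in R 4.3.3 over all 24 libraries, with 1 mean per group, and p-values were two-sided and Benjamini-Hochberg adjusted over 12470 genes. Fold changes are on the log2(FPKM + 1) scale, which understates those of low genes. The script was tested on simulated data.

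The members, gene lists and motifs were chosen with earlier results of these data known. Named genes were the 12 top rises and 12 top falls that passed with as well as without 72 h replicate 3, with no overlap and a mean of at least 5 FPKM in the higher group, 12 rises past it only with that library, up to 4 members of each list with the smallest p, and a fixed panel. Others were named after their values were seen, and a few members of the lists are not reported here. Motifs were searched on both strands in the 250 bases before RefSeq gene starts on GRCm38.p6, without chromosome 18, and 60 bases are printed. No coordinates of the table's own build were used.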

Additional observations from a re-analysis of the deposited data

How the results depend on the processing

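None of the named genes that passed changed sign under the alternatives run. The count of 1814 genes at 72 h against vehicle became 0 with the 6 libraries alone and 3717 with the 20 libraries outside DOX_24h and RMC-4627_24h. It became 1137 with no filter on low values and 181 with the description code as a random block. Leaving out 1 library gave 213 to 3226. Against 24 h the count of 0 became 1 with a pseudocount of 0.1, 28 with no filter, 18 with the code block and 0 to 1017 leaving out 1 library. Against 48 h it became 3 with a pseudocount of 0.1, 3 with no filter and 0 to 541 leaving out 1 library. The cause was not tested, beyond the fewer libraries or more genes in each fit. Of 234 named genes, 151 had a call, and all 151 lost it with the 6 libraries alone. Of those 151, 117 lost it with the code block and 102 without vehicle replicate 1. Same-numbered libraries at 72 h and in vehicle deviated from their group means with correlations of 0.51, -0.0119 and 0.146. With 3 libraries a group these values cannot settle whether the numbers pair the libraries, and the labels name no pairing. With the replicate block the counts were 1499 against vehicle and 19 against 24 h. The 3 libraries a group and the lower depth of 72 h replicate 3 limit what could be detected.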
